A study of Mus musculus with 9 samples.

Results

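The genes of homologous recombination and of the Fanconi anaemia pathway were followed in mouse tracheal cells over the first days of culture at an air-liquid interface. The members were the 33 genes whose symbol in the deposited table is on a list of recombination mediators, BCDX2 and CX3 complex subunits, DNA translocases, nucleases, helicases, Fanconi proteins and the kinases that signal to them. All 33 were found among the 56748 genes of the table, each under its own identifier. The cells were wild-type primary airway basal stem cells of the trachea, grown on a membrane fed from below and open to air above, a culture in which basal cells build a layered epithelium. RNA was sequenced on day 1, day 3 and day 5, which the submitters call the stages of proliferation, stratification and luminal specification, with 3 libraries a day. The labels give every group the same genotype and culture, and time is the difference they name. Not given in the sources used here are the age, sex and number of the donor mice, or whether the 3 libraries of a day came from separate cultures, so p-values measure the spread between these libraries, which may be technical.

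Homologous recombination repairs a broken DNA molecule by copying the missing stretch from the sister chromatid, and it is used mainly while a cell is copying its DNA or has just done so. Nucleases trim the broken end, BRCA1 with BARD1 and PALB2 brings in BRCA2, which acts on the trimmed strand, and helicases and nucleases later take the joined molecules apart. The Fanconi pathway serves the repair of crosslinks that tie the strands of the helix together and stop replication forks: a core complex of Fanconi proteins attaches ubiquitin to the FANCD2-FANCI pair, which then brings nucleases and recombination proteins to the site. In the trachea, basal cells are dividing progenitors, and secretory and multiciliated cells are among their descendants.

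Promoters of 27 of the 33 members were matched by symbol in RefSeq (GRCm38.p6), each window holding 250 bases before and 50 bases after the annotated start. The windows of 4 members are shown: Brca2 and Bard1 fell in both steps of the time course, Rad51b rose in both, and Mus81 rose and then fell. They run 5′ to 3′ in lower case, with the letters of the motifs found in capitals. Brca2 and Bard1 carry letters of an E2F site, a motif through which E2F factors act on many S-phase genes. In Brca2 they lie on the opposite strand, and Bard1 also carries the CHR letters TTTGAA. The window shown for Rad51b carries only a CCAAT box, on the opposite strand, while that of another annotated start of Rad51b, not shown, also holds CHR letters. Mus81 carries none of the motifs searched.
Brca2 (chr5:150522371-150522670, plus strand): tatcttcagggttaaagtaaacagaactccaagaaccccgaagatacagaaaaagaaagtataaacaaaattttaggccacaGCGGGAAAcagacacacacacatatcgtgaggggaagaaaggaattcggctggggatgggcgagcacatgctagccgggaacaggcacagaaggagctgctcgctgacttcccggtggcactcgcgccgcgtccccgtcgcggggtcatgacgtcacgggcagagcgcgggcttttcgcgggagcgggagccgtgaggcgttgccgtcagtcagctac
Bard1 (chr1:71102923-71103222, minus strand): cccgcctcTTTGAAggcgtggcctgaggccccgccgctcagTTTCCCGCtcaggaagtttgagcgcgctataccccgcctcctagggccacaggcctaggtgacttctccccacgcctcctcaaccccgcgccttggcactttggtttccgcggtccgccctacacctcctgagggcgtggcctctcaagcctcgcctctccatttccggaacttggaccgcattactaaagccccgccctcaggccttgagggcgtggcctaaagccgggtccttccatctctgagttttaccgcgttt
Rad51b (chr12:79297032-79297331, plus strand): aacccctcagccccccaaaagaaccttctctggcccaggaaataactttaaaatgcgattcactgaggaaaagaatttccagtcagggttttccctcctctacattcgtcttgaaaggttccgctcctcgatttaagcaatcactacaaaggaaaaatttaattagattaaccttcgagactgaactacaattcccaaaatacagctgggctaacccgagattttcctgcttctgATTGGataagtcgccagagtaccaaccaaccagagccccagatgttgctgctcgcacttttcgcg
Mus81 (chr19:5488330-5488629, minus strand): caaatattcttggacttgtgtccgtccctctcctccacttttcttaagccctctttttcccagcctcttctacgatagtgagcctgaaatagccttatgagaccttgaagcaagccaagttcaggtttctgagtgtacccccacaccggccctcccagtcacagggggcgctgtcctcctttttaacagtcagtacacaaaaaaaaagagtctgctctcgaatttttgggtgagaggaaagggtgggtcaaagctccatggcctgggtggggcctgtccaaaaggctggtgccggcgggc
The E2F letters searched were TTTCCCGC, TTTGGCGC, TTTCGCGC and TTTGCCGC, on both strands, and a window could hold more than one motif. At least 1 of them was present in 5 of the 27 members (18.5%), namely Bard1, Brca2, Fancg, Rad51c and Rmi1, against 2.61% of the 27025 genes with a promoter in the table. CHR elements, spelled TTTGAA or TTCGAA, were in 14.8% of the members and 21.7% of all genes. CCAAT boxes, spelled CCAAT, were in 59.3% of the members and 41.1% of all genes. A match describes letters in the window only. The 5 members with E2F letters did not share a time course, as the values below show, and Rad51c rose before it fell. Brca1, Palb2, Brip1, Rad54l, Blm, Fanca, Fancb, Eme1 and Chek1 fell in both steps and held no E2F letters in their windows. The windows shown thus do not represent the members. The window of Chek1 ended in gcgggaa, the beginning of TTTCCCGC as read on the opposite strand. A site crossing the end of a window could not be found.

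Libraries held 16.4 to 35.1 M reads, and the daily means for days 1, 3 and 5 were 30.8 ± 4.29 M, 21.9 ± 2.55 M and 17.6 ± 1.51 M (SD, n = 3 each). Depth was thus highest on the day when most members were highest, although the deposited values are scaled for depth, and the part of depth in the results was not tested. The basal cell label was checked against its markers: all 8 passed the filter on low values, and their summed level averaged 248647, 407684 and 260324 normalized counts on days 1, 3 and 5. Of the 8 markers, 5 fell and 3 rose on day 3 against day 1, 3 fell and 3 rose on day 5 against day 3, and 5 fell and 3 rose on day 5 against day 1. Krt5, the keratin of basal cells, averaged 108200.0 ± 5696, 82486 ± 1709 and 38922 ± 5823 normalized counts on days 1, 3 and 5, and Trp63, the factor that maintains them, 3811 ± 704, 1644 ± 155 and 2798 ± 472. Summed secretory cell markers averaged 788, 23719.7 and 512033 normalized counts on days 1, 3 and 5, and multiciliated cell markers 123, 359 and 5678. The 6 fibroblast markers summed to at most 14.9, 8.88 and 130.5 on days 1, 3 and 5, and the 6 leukocyte markers to at most 17.2 in any library, with Tyrobp at 0 in all 9. The days also differed in sex-linked transcripts: the 4 Y-linked genes summed to 3027 to 3253 normalized counts on day 1, 299.9 to 348 on day 3 and 401 to 575 on day 5, and Xist had 1548 to 2018, 5416 to 6346 and 6116 to 8698 normalized counts. The mix of donors thus cannot be told apart from the day, and its part in the results was not tested. The table holds bulk RNA, in which fewer cells of a type and less RNA per cell cannot be told apart.

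All 33 members passed the filter on low values, and each had at least 22.2 normalized counts, or 18 reads, in every library. Most of them were lower on the later of any pair of days. On day 3 against day 1, 23 members (69.7%) fell, against 37% of all 17338 tested genes, and 4 members (12.1%) rose, against 36.1%. On day 5 against day 3, 19 members (57.6%) fell, against 32.4% of all genes, and 2 (6.06%) rose, against 34.8%. Over the whole interval, day 5 against day 1, 27 members (81.8%) fell, against 37.7%, and 2 (6.06%) rose, against 36.7%. A call is an adjusted p under 0.05 in a limma fit of log2(normalized count + 1) over all 9 libraries, adjusted by Benjamini-Hochberg over all tested genes.

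The sizes were large over the whole interval. The members' median log2 change was -1.18 on day 3 against day 1, -0.56 on day 5 against day 3 and -2.25 on day 5 against day 1, against 0.0034, 0.055 and -0.057 over all tested genes. On day 5, 19 members (57.6%) were called with a fitted fall of 4-fold or more since day 1, against 9.63% of all genes. An F test for any difference between the days passed in 30 members (90.9%), against 91.4% of all genes. Rad51d, Fance and Fancl were the members that did not pass it. In the groups themselves, all day 3 libraries lay below all day 1 libraries in 26 members (78.8%, against 39.4% of all genes), all day 5 libraries lay below all day 3 libraries in 20 (60.6%, against 34.2%), and all day 5 libraries lay below all day 1 libraries in 27 (81.8%, against 38.9%). The later libraries all lay above the earlier ones in 5 members on day 3 against day 1 (15.2%, against 37.9%), in 2 on day 5 against day 3 (6.06%, against 36.8%) and in 3 on day 5 against day 1 (9.09%, against 38%).

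**Figure D1:**
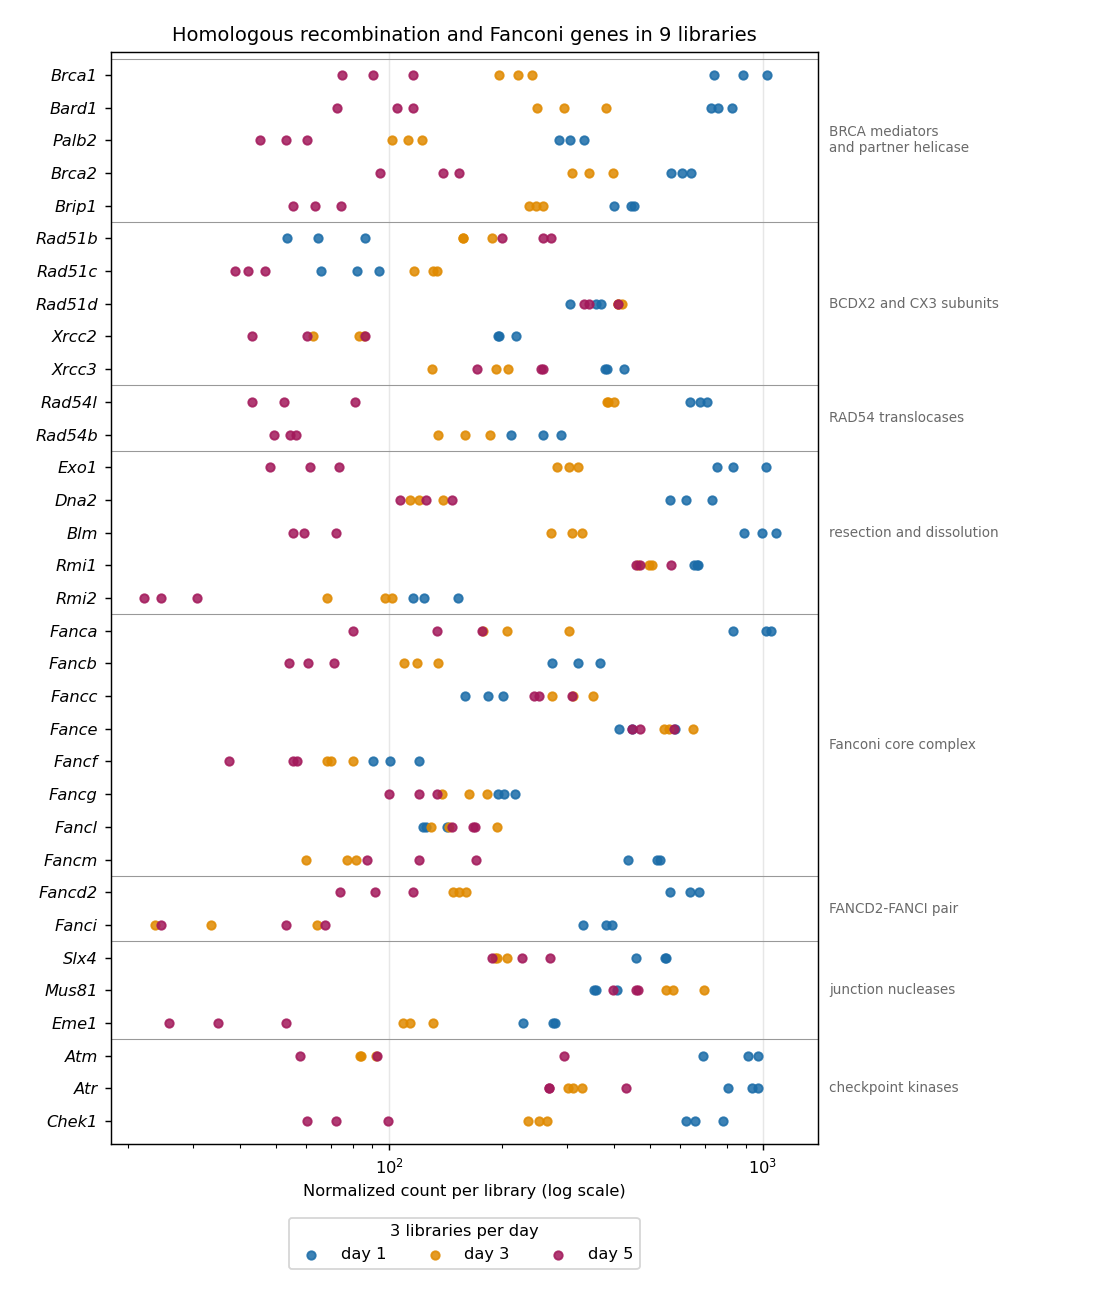
Normalized count (log axis) of each of the 33 members in the 9 libraries, grouped by role, with blue points for day 1, orange for day 3 and purple for day 5. In most rows the purple points lie left of the blue points, while those of Rad51b, Fancc and Fancl lie right of the blue ones and those of Rad51d, Fance and Mus81 overlap them.

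The steps did not follow one course. In 14 members (42.4%, against 7.85% of all genes) the level fell in both steps: Brca1, Bard1, Palb2, Brca2, Brip1, Rad54l, Rad54b, Exo1, Blm, Fanca, Fancb, Fancd2, Eme1 and Chek1. In 8 members (24.2%, against 13.1%) it fell by day 3 and the second step did not pass: Xrcc2, Xrcc3, Dna2, Rmi1, Fanci, Slx4, Atm and Atr. Rmi2, Fancf and Fancg fell only in the second step as called (9.09%, against 8.39%), although their day 3 libraries also lay below their day 1 libraries. Rad51c and Mus81 rose and then fell (6.06%, against 16.2%). Fancc rose by day 3 with no call in the second step (3.03%, against 11%), Rad51b rose in both steps (3.03%, against 8.84%) and Fancm fell and then rose (3.03%, against 16%). No call was made in either step for Rad51d, Fance and Fancl (9.09%, against 8.58%), though each was called at the first step after a trend of length and GC content was taken out, and 0 members had a second step called higher after a first step that was not called (9.98% of all genes).

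The difference between the steps was itself tested, as the change from day 3 to day 5 minus the change from day 1 to day 3. It was positive, that is, the first step was the more negative, in 11 members (33.3%, against 36.8% of all genes). These were the 8 members whose level fell by day 3 with no second call, with Fanca, Fancm and Fancd2. It was negative in 8 members (24.2%, against 33.9%), namely Brip1, Rad51c, Rad54l, Rad54b, Exo1, Rmi2, Fancc and Mus81. Atm had a step difference of 3.69 (adjusted p = 0.0018) and Rad51c one of -2.23 (adjusted p = 0.00025). The balance depended on the setting: with a trend of length and GC content taken out the difference was positive in 7 members and negative in 16, and it was negative in 5 without day 3 replicate 1 or without day 3 replicate 2.

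**Figure D2:**
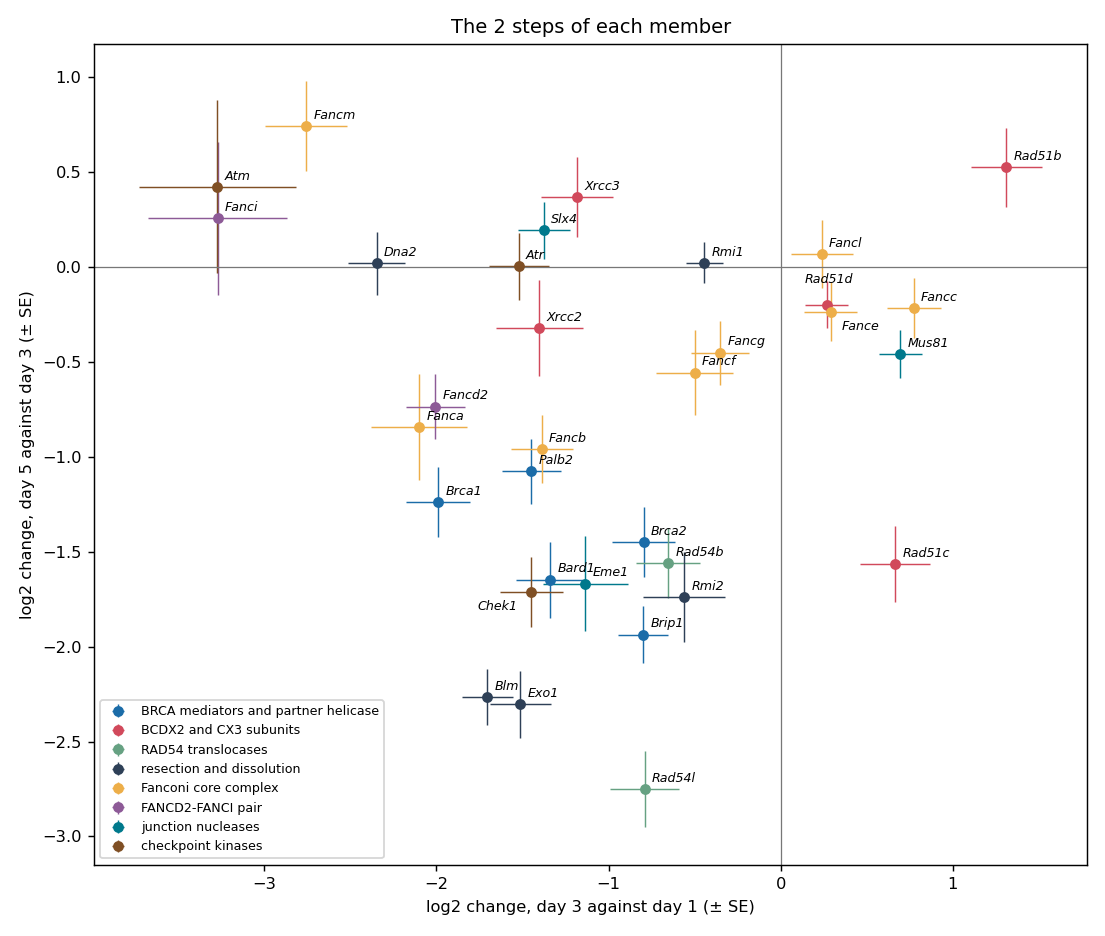
Log2 change of each member on day 3 against day 1 (horizontal axis) and on day 5 against day 3 (vertical axis), with bars of 1 SE and colours for the roles. The BRCA mediators sit together in the lower left, Atm, Fanci and Fancm far to the left, Rad54l lowest, and Rad51b alone in the upper right among the members called in either step.

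The BRCA mediators and their partner helicase fell in both steps without exception, 5 of 5 each time. Of all tested genes, 37% fell in the first step and 32.4% in the second. Brca1 (ENSMUSG00000017146) is the ubiquitin ligase that starts recombination at a break, and it had 739, 1022 and 885 normalized counts on day 1, 197, 221 and 242 on day 3 and 116, 90.4 and 75.1 on day 5. The 3 days did not overlap, with each later day below the one before. Brca1 fell by 1.99 on the log2 scale on day 3 against day 1 (SE 0.18, adjusted p = 5.3e-06) and by 1.24 on day 5 against day 3 (adjusted p = 0.0002). Its day 5 mean was 93.8 ± 20.6 and its day 1 mean 882 ± 142 normalized counts (SD, n = 3 each), a level 9.41-fold lower on day 5. Bard1 (ENSMUSG00000026196), its obligate partner, had 725, 824 and 757 normalized counts on day 1, 294, 249 and 381 on day 3 and 105, 116 and 72.6 on day 5. Those ranges did not overlap either, and its level was 7.85-fold lower on day 5 than on day 1 (log2 change -2.99, SE 0.20, adjusted p = 3.1e-07).

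Palb2 (ENSMUSG00000044702) bridges BRCA1 and BRCA2. It had 284, 333 and 306 normalized counts on day 1, 112, 102 and 122 on day 3 and 60.4, 45.2 and 52.9 on day 5, again with no overlap between days (log2 change -2.53, SE 0.17, adjusted p = 3.4e-07 for day 5 against day 1). Brca2 (ENSMUSG00000041147) is the large mediator that PALB2 brings to the break, and 566, 643 and 606 normalized counts on day 1, 342, 398 and 309 on day 3 and 139.7, 154 and 94.8 on day 5 were counted. Each later day lay below the earlier ones. Its first step was small (log2 change -0.80, SE 0.18, adjusted p = 0.0024) beside its second (log2 change -1.45, SE 0.18, adjusted p = 6.6e-05), but the test of the difference between its steps did not pass (adjusted p = 0.086). Brip1 (ENSMUSG00000034329), the helicase that binds BRCA1 and is also known as FANCJ, had 400.1, 453 and 443 normalized counts on day 1, 259, 237 and 247 on day 3 and 74.3, 63.2 and 55.4 on day 5. For Brip1 the second step was the larger fall, with log2 changes of -0.80 and then -1.94 (step difference -1.14, adjusted p = 0.0024). After the length and GC trend was taken out, the first steps of Brca2 (0.43) and Brip1 (0.29) had the other sign.

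The subunits of the BCDX2 and CX3 complexes, which take part in strand invasion, differed among themselves. By day 3, 2 rose and 2 fell (40% each, against 36.1% and 37% of all tested genes). Rad51b (ENSMUSG00000059060), a subunit of the BCDX2 complex, had 86.1, 64.8 and 53.4 normalized counts on day 1, 157, 189 and 158 on day 3 and 200.2, 271 and 258 on day 5. Each later day was above the earlier ones, and it was the only member called higher in both steps (log2 change 1.31, SE 0.21, adjusted p = 0.0002 for day 3 against day 1). Its second step was small and passed narrowly (log2 change 0.52, SE 0.21, adjusted p = 0.045), and it no longer passed under several other settings, for example after the length and GC trend was taken out (0.33, adjusted p = 0.18). Its day 5 mean of 243 ± 37.8 normalized counts was 3.57 times its day 1 mean of 68.1 ± 16.6 (log2 change 1.84, SE 0.21, adjusted p = 1.5e-05).

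Rad51c (ENSMUSG00000007646), which takes part in the BCDX2 and CX3 complexes, had 94.3, 65.6 and 81.9 normalized counts on day 1, 131, 116 and 134 on day 3 and 46.6, 38.7 and 41.8 on day 5. All day 3 libraries lay above, and all day 5 libraries below, those of day 1. The rise (log2 change 0.67, SE 0.20, adjusted p = 0.012) was followed by a fall (log2 change -1.57, SE 0.20, adjusted p = 7.8e-05). Xrcc3 (ENSMUSG00000021287), the other subunit of CX3, had 378, 426 and 383 on day 1, 129.9, 193 and 208 on day 3 and 258, 254 and 172 on day 5. Xrcc3 fell by day 3 (-1.18, adjusted p = 0.00044) and its day 5 libraries overlapped those of day 3 (0.37, adjusted p = 0.14). Xrcc2 (ENSMUSG00000028933), which pairs with RAD51D in BCDX2, had 196, 218 and 197 on day 1, 62.5, 83 and 85.9 on day 3 and 60.4, 86.5 and 43.1 on day 5. It fell by day 3 (-1.40, adjusted p = 0.0005), and days 3 and 5 overlapped. Rad51d (ENSMUSG00000018841) had 304, 369 and 358 on day 1, 409.7, 420.4 and 409 on day 3 and 408, 342 and 332 on day 5, and no step passed (0.27, adjusted p = 0.073 for day 3 against day 1). All its day 3 libraries lay above those of day 1, and after the length and GC trend was taken out it was called higher on day 3 than on day 1 (0.29, adjusted p = 0.021) and lower on day 5 than on day 3 (adjusted p = 0.0038). Per library, the log2 ratio of Rad51b to Xrcc2 averaged -1.61, 1.13 and 1.99 on days 1, 3 and 5, and the 3 days did not overlap.

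The RAD54 translocases move along DNA and help strands to exchange, and both fell in both steps (37% and 32.4% of all tested genes). Rad54l (ENSMUSG00000028702) had 636, 709 and 677 normalized counts on day 1, 398, 383 and 386 on day 3 and 52.5, 81.3 and 43.1 on day 5. The days did not overlap, and the SDs were 36.6, 8.25 and 19.9 normalized counts on days 1, 3 and 5. Its second step was the most negative of all members (log2 change -2.75, SE 0.20, adjusted p = 1.7e-06), and larger than its first (log2 change -0.79, SE 0.20, adjusted p = 0.0045; step difference -1.96, adjusted p = 0.00054). Its level on day 5 was 11.4-fold lower than on day 1. In the last 500 bases of its transcript, 13.8% lie under exons of Lrrc41 on the opposite strand. Rad54b (ENSMUSG00000078773), its relative, had 212, 258 and 289 normalized counts on day 1, 159.9, 186 and 135 on day 3 and 56.5, 54.2 and 49.2 on day 5. Here too the days did not overlap, with log2 changes of -0.65 (adjusted p = 0.0082) and then -1.56 (adjusted p = 4.3e-05). The first of these did not pass after the length and GC trend was taken out (-0.34, adjusted p = 0.098).

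Of the resection and dissolution genes, 4 of 5 fell by day 3 (80%, against 37% of all tested genes). After day 3, 3 of 5 fell (60%, against 32.4%), and all 5 were lower on day 5 than on day 1 (37.7% of all). Blm (ENSMUSG00000030528), the helicase that undoes joined DNA molecules and is lost in Bloom syndrome, had 892, 1081 and 992 normalized counts on day 1, 271, 309 and 328 on day 3 and 72.3, 55.5 and 59.1 on day 5. The days did not overlap. Blm showed the most negative whole change of any member (log2 change -3.97, SE 0.15, adjusted p = 8.6e-09), a level of 62.3 ± 8.87 on day 5 and 988 ± 94.7 normalized counts on day 1, 15.9-fold lower on day 5. Exo1 (ENSMUSG00000039748) encodes a nuclease that lengthens the trimmed end. It had 753, 1017 and 829.5 normalized counts on day 1, 302, 320.0 and 281 on day 3 and 61.4, 73.6 and 48 on day 5, with no overlap, and was 14.2-fold lower on day 5 (log2 change -3.82, SE 0.18, adjusted p = 2.9e-08). Rad54l, Exo1 and Blm were the members called with a fitted fall of 4-fold or more on day 5 against day 3 (9.09%, against 5.13% of all genes).

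Dna2 (ENSMUSG00000036875), the other nuclease that lengthens trimmed ends, had 564, 728 and 621 normalized counts on day 1, 119.9, 114 and 139 on day 3 and 148, 125 and 107 on day 5. All day 3 and day 5 libraries lay below day 1 and overlapped each other. Dna2 fell by day 3 (log2 change -2.35, SE 0.17, adjusted p = 1.2e-06) and its second step was 0.02 (SE 0.17, adjusted p = 0.92; step difference 2.37, adjusted p = 5.3e-05). Rmi1 (ENSMUSG00000035367) and Rmi2 (ENSMUSG00000037991) encode the small partners of BLM in the dissolution complex. Rmi1 had 668, 671 and 655 on day 1, 496, 506 and 464 on day 3 and 567, 457 and 470.1 on day 5, and Rmi2 had 116, 153 and 124 on day 1, 97.4, 102 and 68.1 on day 3 and 30.7, 24.5 and 22.2 on day 5. Rmi1 fell slightly by day 3 (-0.44, adjusted p = 0.0034), and its days 3 and 5 overlapped. After the length and GC trend was taken out, that first step of Rmi1 was called higher instead (0.35, adjusted p = 0.0077). Rmi2 fell in the second step (-1.74, adjusted p = 0.00011) and missed the threshold in the first (-0.56, adjusted p = 0.052). The lower level of Rmi1 on day 5 than on day 1 (-0.42, adjusted p = 0.0044) was not called under upper-quartile scaling (-0.17, adjusted p = 0.15). That difference was not called after the length and GC trend was taken out either (-0.04, adjusted p = 0.71). Dna2 was among the 6 members called with a fitted fall of 4-fold or more on day 3 against day 1 (18.2%, against 9.03% of all genes), with Fanca, Fancm, Fancd2, Fanci and Atm.

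The Fanconi core complex, the ubiquitin ligase of the pathway, was mixed. Of its 8 genes, 3 fell (37.5%) and 1 rose (12.5%) by day 3, against 37% and 36.1% of all tested genes. The share that fell was thus near that of all genes as normalized by the authors. After day 3, 4 fell (50%) and 1 rose (12.5%), against 32.4% and 34.8%. On day 5 against day 1, 5 were lower (62.5%) and 1 higher (12.5%), against 37.7% and 36.7%. After the length and GC trend was taken out, 6 of the 8 fell and 2 rose by day 3, against 35.4% and 36.1% of all genes. The share that fell was not near that of all genes in that fit. Fanca (ENSMUSG00000032815) and Fancb (ENSMUSG00000047757), scaffold subunits, fell in both steps. Fanca had 833, 1018 and 1047 normalized counts on day 1, 179, 206 and 302 on day 3 and 177, 134 and 80.0 on day 5. Days 3 and 5 lay below day 1, and the day 5 library at 177 was just under the lowest day 3 library at 179. The second step of Fanca (log2 change -0.84, SE 0.28, adjusted p = 0.02) did not pass without day 3 replicate 3 (-0.63, adjusted p = 0.079), nor when day 5 replicate 3 was left out (-0.53, adjusted p = 0.064). All of the last 500 bases of its transcript lie under exons of Zfp276 on the opposite strand. Fancb, which lies on the X chromosome, had 273, 366 and 321 on day 1, 119, 109.8 and 135 on day 3 and 71.3, 60.7 and 54.1 on day 5, with no overlap (-2.35, adjusted p = 8.1e-07 for day 5 against day 1). The Xist and Y-linked values that moved between the days stand beside this gene, and their part in it was not tested.

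Fancm (ENSMUSG00000055884), the motor protein that anchors the core complex to DNA, had 435, 531 and 521 normalized counts on day 1, 60.0, 81.7 and 77 on day 3 and 170.4, 120.0 and 87.4 on day 5. All later libraries lay below day 1, and all day 5 libraries lay above day 3. The first step was the largest of the core complex (log2 change -2.76, SE 0.24, adjusted p = 3.5e-06). The partial return by day 5 (log2 change 0.74, SE 0.24, adjusted p = 0.018) was not called after the length and GC trend was taken out (0.28, adjusted p = 0.15), with quantile normalization (0.41, adjusted p = 0.18), without day 3 replicate 1 (0.61, adjusted p = 0.068), nor when day 5 replicate 1 was left out (0.50, adjusted p = 0.061). Fancc (ENSMUSG00000021461), which joins FANCE and FANCF in a subcomplex, went up instead, with 159, 202 and 184 on day 1, 351, 311 and 273 on day 3 and 245, 308 and 251 on day 5. All day 3 and day 5 libraries lay above those of day 1. It rose by day 3 (0.77, adjusted p = 0.001) and was also higher on day 5 than on day 1 (0.56, adjusted p = 0.0075). That whole change was not called after the length and GC trend was taken out (0.27, adjusted p = 0.1) or with quantile normalization (0.36, adjusted p = 0.07).

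Fance (ENSMUSG00000007570) links the core complex to FANCD2, and Fancl (ENSMUSG00000004018) carries its ligase activity. Fance had 412, 583 and 447 on day 1, 559.6, 648 and 544 on day 3 and 445, 469 and 578 on day 5, and Fancl had 123, 143 and 126 on day 1, 145, 129.9 and 194 on day 3 and 148, 168 and 169.8 on day 5. Libraries of different days overlapped in each step of both genes and no step passed, with log2 changes on day 3 against day 1 of 0.29 (adjusted p = 0.11) for Fance and 0.24 (adjusted p = 0.25) for Fancl. After the length and GC trend was taken out, Fance was called lower on day 3 than on day 1 (-0.67) and Fancl higher (0.60, adjusted p = 0.01). Of the last 500 bases of Fancl, 82% lie under exons of Vrk2 on the opposite strand. Fancf (ENSMUSG00000092118), an adaptor, had 100.4, 120.4 and 90.4 on day 1, 69.9, 68.3 and 79.9 on day 3 and 55.5, 37.4 and 56.6 on day 5. Fancg (ENSMUSG00000028453), the subunit that binds FANCA, had 203, 217 and 196 on day 1, 139, 163 and 183 on day 3 and 119.9, 134 and 99.7 on day 5. In both, the days did not overlap and each later day lay below the one before, and both genes were lower on day 5 than on day 1 (-1.06, adjusted p = 0.0015 for Fancf and -0.80, adjusted p = 0.0013 for Fancg). Their second steps passed narrowly (adjusted p = 0.048 for Fancf and 0.035 for Fancg). That of Fancf did not pass after the length and GC trend was taken out (-0.32, adjusted p = 0.25), nor that of Fancg under upper-quartile scaling (-0.34, adjusted p = 0.087).

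The FANCD2-FANCI pair, the substrate of the core complex, fell by day 3 in both genes (37% of all tested genes). Fancd2 (ENSMUSG00000034023) had 564, 673 and 639 normalized counts on day 1, 154, 149 and 161 on day 3 and 116, 91.6 and 73.8 on day 5. The days did not overlap, and both steps passed (log2 change -2.01, SE 0.17, adjusted p = 3.5e-06 for the first and log2 change -0.74, SE 0.17, adjusted p = 0.0035 for the second). Fanci (ENSMUSG00000039187) had 331, 394 and 379.6 normalized counts on day 1, 23.7, 33.5 and 64.1 on day 3 and 67.4, 52.9 and 24.6 on day 5. Days 3 and 5 overlapped and varied more than most members, from 23.7 to 64.1 on day 3 and from 24.6 to 67.4 on day 5. It fell to 40.4 ± 21.1 on day 3, against 368 ± 33.2 normalized counts on day 1 (log2 change -3.27, SE 0.40, adjusted p = 3.5e-05), and the second step did not pass (0.26, adjusted p = 0.59). In their last 500 bases, 51.4% of Fancd2 lies under exons of Fancd2os and 74.4% of Fanci under exons of Polg, each on the opposite strand. Whether the counting used strand is not given in the sources used here, so reads of overlapping genes cannot be told apart for Fanca, Fancl, Fanci, Fancd2, Eme1 and Rad54l in these last bases. Exons on the opposite strand also lie over other stretches of Fancf, Fancm, Fancc and Atr (15%, 7.36%, 7.24% and 6.67% of the transcript) and over under 1% of Brca2, Xrcc3 and Rad54b.

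The junction nucleases and their scaffold cut joined or crosslinked DNA. Slx4 (ENSMUSG00000039738), the scaffold also known as FANCP, had 456, 549 and 546 normalized counts on day 1, 207, 191 and 194 on day 3 and 269.5, 227 and 188 on day 5. It fell by day 3 (log2 change -1.38, SE 0.15, adjusted p = 1.6e-05) and days 3 and 5 overlapped (0.19, adjusted p = 0.28). Mus81 (ENSMUSG00000024906) and Eme1 (ENSMUSG00000039055) form one nuclease, with MUS81 as the catalytic subunit. Mus81 had 358, 408 and 352 normalized counts on day 1, 575, 695 and 549.6 on day 3 and 397, 463 and 457 on day 5. All day 3 libraries lay above day 1 and above day 5, and days 1 and 5 overlapped. Mus81 rose (log2 change 0.70, SE 0.13, adjusted p = 0.00049) and then fell (log2 change -0.46, SE 0.13, adjusted p = 0.008), and the rise had the other sign after the length and GC trend was taken out (-0.13, adjusted p = 0.26). Eme1 had 229, 277 and 274 normalized counts on day 1, 109, 131 and 113 on day 3 and 25.8, 34.9 and 52.9 on day 5, with no overlap between days, and was 6.87-fold lower on day 5 than on day 1 (log2 change -2.80, SE 0.25, adjusted p = 2.3e-06). Of the last 500 bases of Eme1, 44.2% lie under exons of Lrrc59 and Mrpl27 on the opposite strand.

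The checkpoint kinases signal breaks and stalled forks, and all 3 fell by day 3 (37% of all tested genes). Atm (ENSMUSG00000034218), which responds to breaks, had 689.6, 910.0 and 971 normalized counts on day 1, 92.4, 84.3 and 83.9 on day 3 and 293, 92.9 and 57.8 on day 5. Day 5 replicate 1 stood apart at 293, while replicate 2 was near the day 3 level, at 92.9, and replicate 3 was below all day 3 libraries, at 57.8. Atm fell to 86.9 ± 4.81 on day 3, against 857 ± 148 normalized counts on day 1 (log2 change -3.27, SE 0.46, adjusted p = 8e-05). Its second step did not pass (log2 change 0.42, SE 0.46, adjusted p = 0.43). The sign of that step rested on day 5 replicate 1, since it was -0.24 without that library (adjusted p = 0.37). Atr (ENSMUSG00000032409), which responds to single-stranded DNA, had 805, 969.8 and 933 normalized counts on day 1, 327, 311 and 301 on day 3 and 429, 267 and 268 on day 5. The same day 5 library was the highest of its day, at 429. Atr fell by day 3 (log2 change -1.52, SE 0.18, adjusted p = 2.2e-05) and its second step was 0.0026 (adjusted p = 0.99). With day 5 replicate 1 left out that step was -0.22 (adjusted p = 0.10), and after the length and GC trend was taken out it was called lower (-0.56, adjusted p = 0.00067). Chek1 (ENSMUSG00000032113), the kinase that ATR activates, had 622, 779.7 and 658 normalized counts on day 1, 235, 264 and 252 on day 3 and 99.1, 72.3 and 60.3 on day 5. Chek1 fell again after day 3 with no overlap (log2 change -1.71, SE 0.18, adjusted p = 2.2e-05), to a level 8.89-fold lower on day 5 than on day 1.

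**Figure D3:**
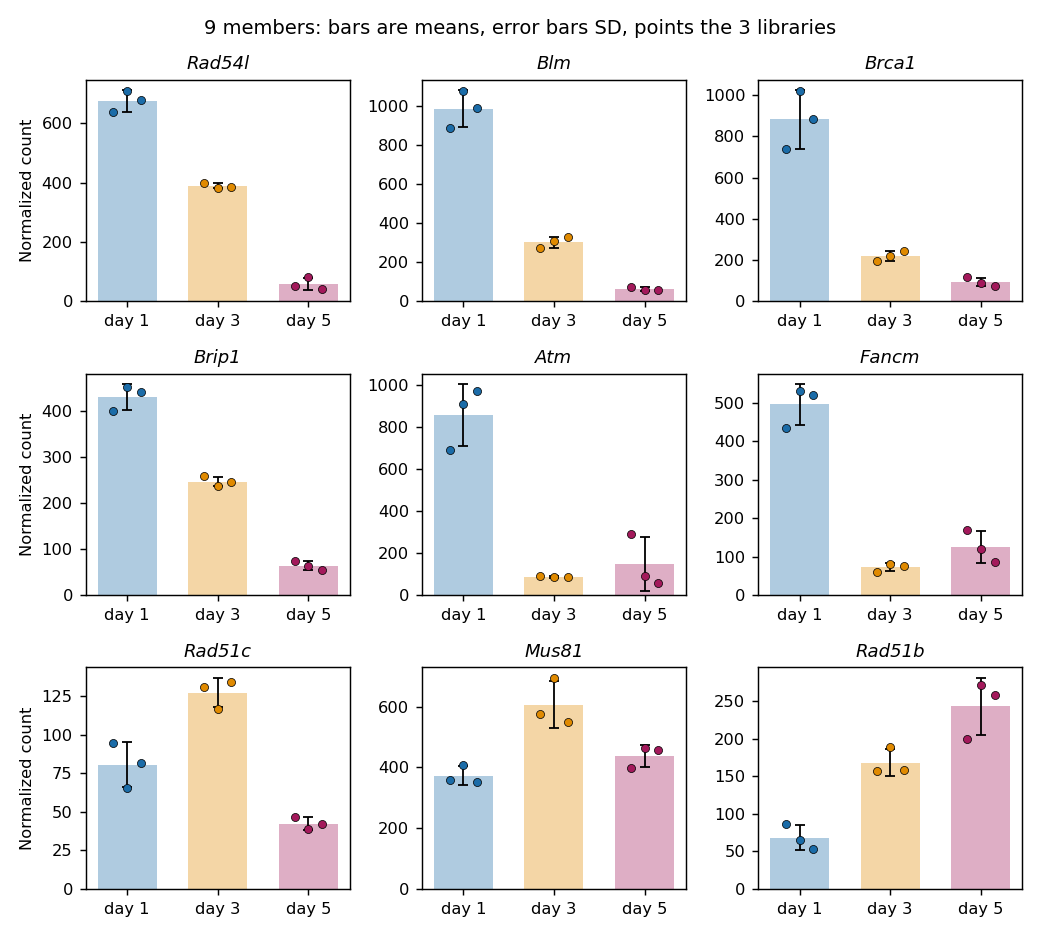
Normalized count of 9 members on days 1, 3 and 5, with bars for the mean, error bars for the SD and points for the 3 libraries. The 9 were picked after their values were seen to show the courses: Rad54l, Blm, Brca1 and Brip1 fall at each step, the means of Atm and Fancm are lowest on day 3, Rad51c and Mus81 peak on day 3 and Rad51b is highest on day 5.

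Partners of one complex were compared within libraries, since a ratio within a library does not depend on its size factor. The log2 ratio of Mus81 to Eme1 was 0.65, 0.56 and 0.36 on day 1, 2.40, 2.41 and 2.28 on day 3 and 3.95, 3.73 and 3.11 on day 5. The days did not overlap, and day 5 was 3.07 above day 1. The ratio of Rmi1 to Rmi2 was 2.53, 2.13 and 2.40 on day 1, 2.35, 2.31 and 2.77 on day 3 and 4.21, 4.22 and 4.41 on day 5. Days 1 and 3 overlapped, and day 5 was 1.80 above day 3. For Brca1 to Bard1 the means were 0.19 on day 1, -0.47 on day 3 and -0.06 on day 5. Day 5 overlapped both day 1 and day 3. The ratio of Rad51c to Xrcc3 averaged -2.31, -0.45 and -2.41, with days 1 and 5 overlapping and day 3 above both. The ratio of Fancd2 to Fanci averaged 0.76, 2.06 and 1.05, with days 3 and 5 overlapping and day 1 below both. These were 18 comparisons of 6 pairs by a two-sided exact permutation test, in which 3 against 3 libraries cannot go below p = 0.1, and the comparisons with no overlap stood at that p (0.138 after Benjamini-Hochberg adjustment over the 18).

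Transcript length moved with the first step across the whole table. Among all tested genes with a length, the tenth with the shortest transcripts (60 to 738 bases) had a median log2 change of 0.67 on day 3 against day 1, and the tenth with the longest (at least 6148 bases) had -0.94. On day 5 against day 3 the order was the other way, with -1.06 for the shortest and 0.39 for the longest, and on day 5 against day 1 both ends were low, at -0.58 and -0.60. Members were long: their median transcript was 3797 bases (1691 to 10724), against 2627 for the tested genes, and 27 of 33 were above that. With a trend of length and GC content taken out of each library, 22 members fell and 7 rose on day 3 against day 1 (35.4% and 36.1% of all genes), 22 fell and 0 rose on day 5 against day 3 (35.4% and 31.9%), and 28 fell and 1 rose on day 5 against day 1 (39.4% and 37.1%). The 0 members that rose on day 5 against day 3 in that limma fit were also 0 at an unadjusted p under 0.05. Rad51b (0.33), Xrcc3 (0.44) and Fancm (0.28) had positive log2 changes there. The members' medians were then -0.70, -0.59 and -2.14.

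Some members changed sign or call in that fit. Brca2, the longest member at 10724 bases, had -0.80 on day 3 against day 1 as normalized by the authors and 0.43 after the trend was taken out (adjusted p = 0.044). Brip1 had 0.29 (adjusted p = 0.053) and Rmi1 0.35 (adjusted p = 0.0077), both of them lower before that. Fance, a short transcript of 2025 bases, was then lower on day 3 (-0.67, adjusted p = 0.00075). Fancf (-1.32) and Fancg (-0.62) were then called lower on day 3 than on day 1. The 6 members with a fitted fall of 4-fold or more by day 3 were still called lower, by less: Fanci had -2.68, Atm -2.08, Fanca -2.06, Dna2 -1.97, Fancm -1.74 and Fancd2 -1.24. Rad51b, at 1.32, and Rad51c, at 1.25, remained higher on day 3. In the second step Rad51d (-0.41), Rmi1 (-0.39), Fancc (-0.38) and Atr (-0.56) were newly called lower, and on day 5 against day 1 so were Fance (-0.83) and Mus81 (-0.47). Over day 5 against day 1, 26 of the 27 members that fell did so in both fits, and Rmi1 was the exception (-0.04, adjusted p = 0.71). The part of transcript length in the members' changes was not tested beyond this fit.

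**Figure D4:**
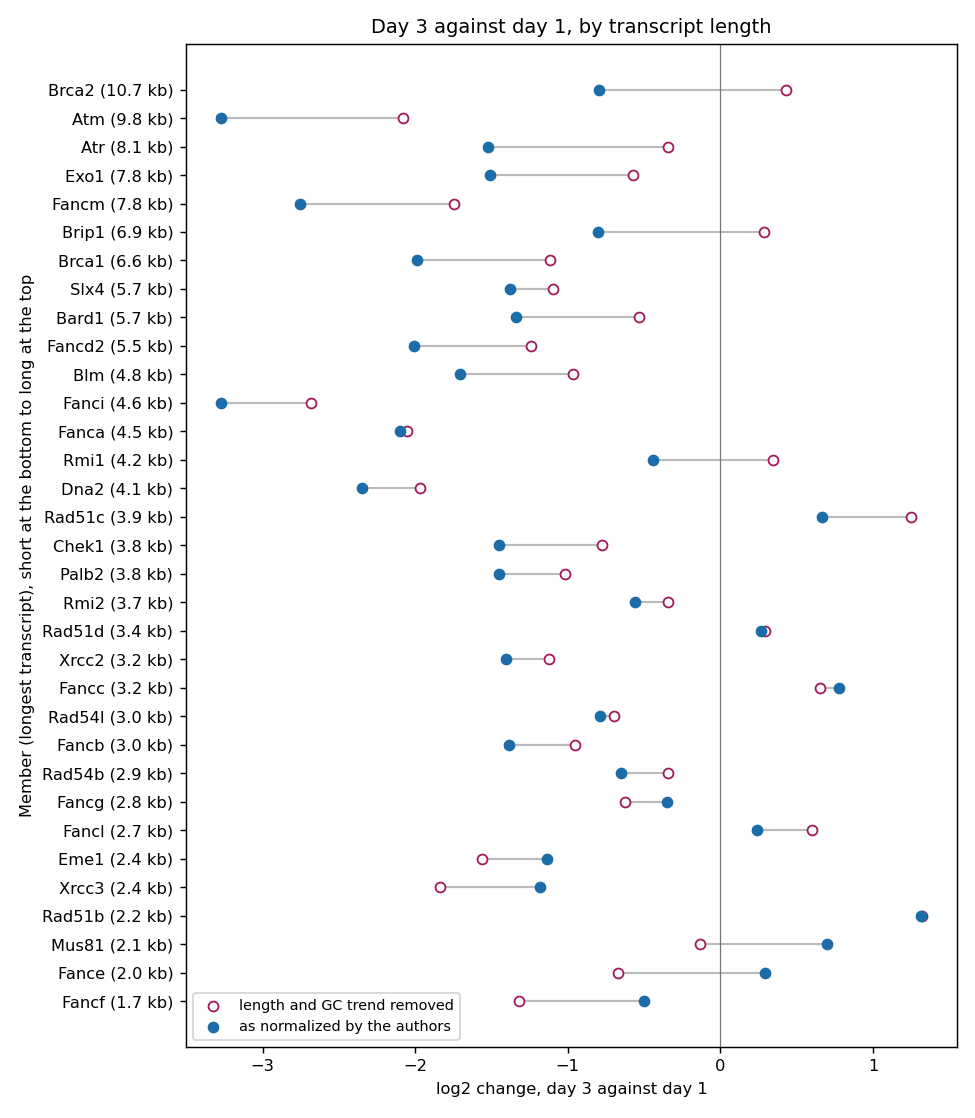
Log2 change on day 3 against day 1 for each member, ordered by transcript length with the longest at the top, as normalized by the authors (filled) and after the length and GC trend was taken out (open). Open points lie right of filled ones for long transcripts such as Brca2, Atm and Atr and left of them for short ones such as Mus81, Fance and Fancf.

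Levels were compared between members as normalized counts per kb of the longest reference transcript. The length and GC trend was not taken out of these levels, so differences in rank between days also hold that trend. On day 1 the highest were Fance (237), Rad54l (223), Fanca (215) and Blm (207 per kb), and Rad51b (31.1) and Rad51c (20.4) were the lowest. On day 3 they were Mus81 (293) and Fance (288), followed at a distance by Rad54l (129) and Rad51d (121 per kb). On day 5 Fance (246) and Mus81 (212) led, and Rmi1 (118), Rad51b (111) and Rad51d (105 per kb) came next. Rad51b thus ranked 4 of 33 per kb on day 5 and 32 of 33 on day 1. Rad54l ranked 18 on day 5 and 2 on day 1, and Blm 27 on day 5 and 4 on day 1. The lowest per kb on day 5 were Rmi2 (6.89) and Exo1 (7.82).

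Other genes of the same pathways fell more often than they rose. Of 25 further recombination genes, 15 fell (60%) and 5 rose (20%) on day 3 against day 1 (all tested genes, 37% and 36.1%), 17 fell (68%) and 5 rose (20%) on day 5 against day 3 (32.4% and 34.8% of all), and 16 fell (64%) and 5 rose (20%) on day 5 against day 1 (37.7% and 36.7% of all). After the length and GC trend was taken out, 11 of the 25 fell and 7 rose on day 3 against day 1 (35.4% and 36.1% of all). Polq, the polymerase of an alternative end-joining route, had 504 ± 81.8, 95.2 ± 19.1 and 29.6 ± 12.9 normalized counts on days 1, 3 and 5 (log2 change -4.12, adjusted p = 6.5e-07 for day 5 against day 1). Hrob, which recruits the MCM8-MCM9 helicase, fell after day 3, with 354 ± 52.5, 309.7 ± 32.6 and 32.1 ± 9.69 (log2 change -3.27, adjusted p = 8.6e-07 for day 5 against day 3). Slx1b, the nuclease held by SLX4, was higher on day 5 than on day 1 instead (377 ± 66.9 against 151 ± 21.8, log2 change 1.31, adjusted p = 7.2e-05), as was Rad52 (284 ± 15.3 against 168 ± 3.22, log2 change 0.75, adjusted p = 0.00042). On day 3 against day 1, Swi5, a partner of SFR1, was higher (log2 change 0.94) and Parpbp lower (-1.84). Eme2, another partner of MUS81, was higher on day 5 than on day 3 (log2 change 0.91), as was Nbn, of the MRE11 complex (0.44), while Rpa2, which binds single-stranded DNA, was lower (-2.06).

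Of 17 further Fanconi pathway genes, 10 fell (58.8%) and 5 rose (29.4%) on day 3 against day 1 (37% and 36.1% of all tested genes), 11 fell (64.7%) and 5 rose (29.4%) on day 5 against day 3 (32.4% and 34.8%), and 10 fell (58.8%) and 2 rose (11.8%) on day 5 against day 1 (37.7% and 36.7%). Rad18, a ubiquitin ligase of stalled forks, had 1363 ± 106, 426 ± 25.9 and 92.3 ± 10.4 normalized counts on days 1, 3 and 5 (log2 change -3.87, adjusted p = 4.2e-09 for day 5 against day 1). Usp1, which removes ubiquitin from FANCD2, was lower on day 5 (654 ± 80.9) than on day 1 (3240.3 ± 239.6; log2 change -2.31, adjusted p = 3.7e-08). Faap20, a small partner of FANCA, rose by day 3, to 1129 ± 141 against 283 ± 27.9 on day 1 (log2 change 1.99, adjusted p = 4e-06), while Fanca fell. Rev1, a polymerase scaffold for bypass of lesions, and Fan1, a nuclease, had their lowest level on day 3, as Fancm did: Rev1 had 630.5 ± 30.1, 59.4 ± 38.2 and 239.6 ± 117, and Fan1 121 ± 22.2, 19.2 ± 6.49 and 91.9 ± 48.3. Mad2l2, the REV7 subunit of a bypass polymerase, was higher on day 3 than on day 1 (log2 change 1.53) and on day 5 than on day 1 (0.60), and Cenps, which binds FANCM, was lower on day 5 than on day 3 (-2.67).

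Of 24 further checkpoint and break-signalling genes, 15 fell (62.5%) and 5 rose (20.8%) by day 3 (37% and 36.1% of all tested genes), 13 fell (54.2%) and 3 rose (12.5%) in the second step (32.4% and 34.8%), and 18 fell (75%) and 2 rose (8.33%) over the whole interval (37.7% and 36.7%). Clspn, the adaptor through which ATR activates CHK1, had 1460.5 ± 229.9, 278 ± 32.5 and 103 ± 32 normalized counts (log2 change -3.85, adjusted p = 7.8e-08 for day 5 against day 1). Rif1, which limits resection, was lowest on day 3 (2432 ± 282, 322 ± 16.7 and 674 ± 278). Babam2, a member of the BRCA1-A complex, was highest on day 3 (419.9 ± 28.1, 2151 ± 320.1 and 786 ± 136). Rnf8, a ubiquitin ligase at breaks, was higher on day 3 than on day 1 (log2 change 1.70) and on day 5 than on day 1 (0.97). Trp53bp1, which limits resection with RIF1, was higher on day 5 than on day 3 (log2 change 1.30), while Timeless, a fork protection factor, and H2ax, the histone phosphorylated at breaks, were lower (-2.17 and -1.54). Among the 10 genes of non-homologous end joining, the route that rejoins ends without a template, 3 fell (30%) and 4 rose (40%), 2 fell (20%) and 3 rose (30%), and 4 fell (40%) and 4 rose (40%) in the same order. The shares of all tested genes were again 37% and 36.1%, 32.4% and 34.8%, and 37.7% and 36.7%. Paxx, an end-joining factor, was higher on day 5 (709 ± 170.2) than on day 1 (151 ± 16.2; log2 change 2.19, adjusted p = 1.9e-06), and Xrcc6, which encodes KU70, was lower (436 ± 32.6 against 939 ± 87.6; log2 change -1.10, adjusted p = 4.4e-06). Nhej1, which encodes XLF, was higher on day 3 than on day 1 (log2 change 1.21). Dclre1c, the Artemis nuclease, and Lig4, the ligase, were lower on day 3 than on day 1 (-1.96 and -1.49) and higher on day 5 than on day 3 (0.86 and 0.61), and Poll, a polymerase, was lower on day 5 than on day 3 (-0.67).

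Cell cycle genes moved beside the members. All 23 replication genes and all 19 mitosis genes were lower on day 5 than on day 1. Among all tested genes, 37% fell and 36.1% rose on day 3 against day 1. In the second step these shares were 32.4% and 34.8%, and on day 5 against day 1 they were 37.7% and 36.7%. On day 3 against day 1, 14 fell (60.9%) and 4 rose (17.4%) among the replication genes and 16 fell (84.2%) and 1 rose (5.26%) among the mitosis genes. In the second step, 22 fell (95.7%) and 1 rose (4.35%) in replication and 17 fell (89.5%) and 1 rose (5.26%) in mitosis. Of the replication genes, Gins2, of the helicase complex, and Pold1, a polymerase, were higher on day 3 than on day 1 (log2 change 1.05 and 0.69), and Ccne2, a cyclin E, and Orc1, of the origin recognition complex, were lower (-3.88 and -2.68). Ccne2 was higher on day 5 than on day 3 (0.79), and Gins1 and Cdc45, of the same helicase complex, were lower (-2.82 and -2.70). Rrm2, a subunit of ribonucleotide reductase, was lower on day 5 than on day 1 (-4.14). Of the mitosis genes, Ccnb2, a cyclin B, was higher on day 3 than on day 1 (log2 change 0.42), and Prc1 and Kif20a, of the central spindle, were lower (-4.25 and -4.19). Kif20a was higher on day 5 than on day 3 (1.25), and Ube2c, which serves the anaphase-promoting complex, and Birc5, which encodes survivin, were lower (-2.89 and -2.60). Bub1, a spindle checkpoint kinase, and Ccna2, a cyclin A, were lower on day 5 than on day 1 (-4.08 and -3.45). Mki67, a marker of cycling cells, had 10441 ± 1149, 4207 ± 128 and 1068 ± 108 normalized counts on days 1, 3 and 5, with log2 changes of -1.31 and then -1.98. After the length and GC trend was taken out its first step was smaller (-0.26, adjusted p = 0.022). Pcna, the sliding clamp of replication, had 4369.5 ± 392, 4168 ± 68.8 and 1333 ± 170.1, and its first step did not pass (log2 change -0.06, adjusted p = 0.61). Of 17 cell cycle transcription regulators, 13 fell (76.5%) and 0 rose (0%) on day 3 against day 1 in the limma fit (0 rose at an unadjusted p under 0.05), 8 fell (47.1%) and 4 rose (23.5%) on day 5 against day 3, and 14 fell (82.4%) and 2 rose (11.8%) on day 5 against day 1. E2f1, an activator of S-phase genes, was lower on day 5 (123 ± 19.7) than on day 3 (537 ± 40.1; log2 change -2.13, adjusted p = 1e-06), and Mybl2, a subunit of the complex that acts on late cell cycle genes, likewise (153 ± 24.6 against 826 ± 27.1; log2 change -2.43, adjusted p = 3.9e-07). E2f7, a repressor of S-phase genes, and Rbl2, the p130 pocket protein, were lower on day 3 than on day 1 (log2 change -2.68 and -2.30). Rbl2 and Tfdp2, a partner of E2F factors, were higher on day 5 than on day 3 (1.96 and 0.70). Tfdp2 and E2f5 were also higher on day 5 than on day 1 (0.75 and 0.48) and E2f8, another repressor, was lower (-4.05). Of the genes named from the further lists, Pold1 and Ccnb2 on day 3 against day 1, Nbn, Dclre1c, Lig4, Ccne2 and Tfdp2 on day 5 against day 3, and Mad2l2 on day 5 against day 1 were not called after the length and GC trend was taken out. With that trend taken out, 9 Fanconi genes of the further lists fell and 3 rose on day 3 against day 1. For checkpoint and break-signalling genes these counts were 15 and 5, and for end joining 2 and 4. They were 15 and 2 for replication, 16 and 1 for mitosis and 13 and 2 for the regulators (35.4% and 36.1% of all genes). The part of cell cycling in the members' values was not tested.

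**Figure D5:**
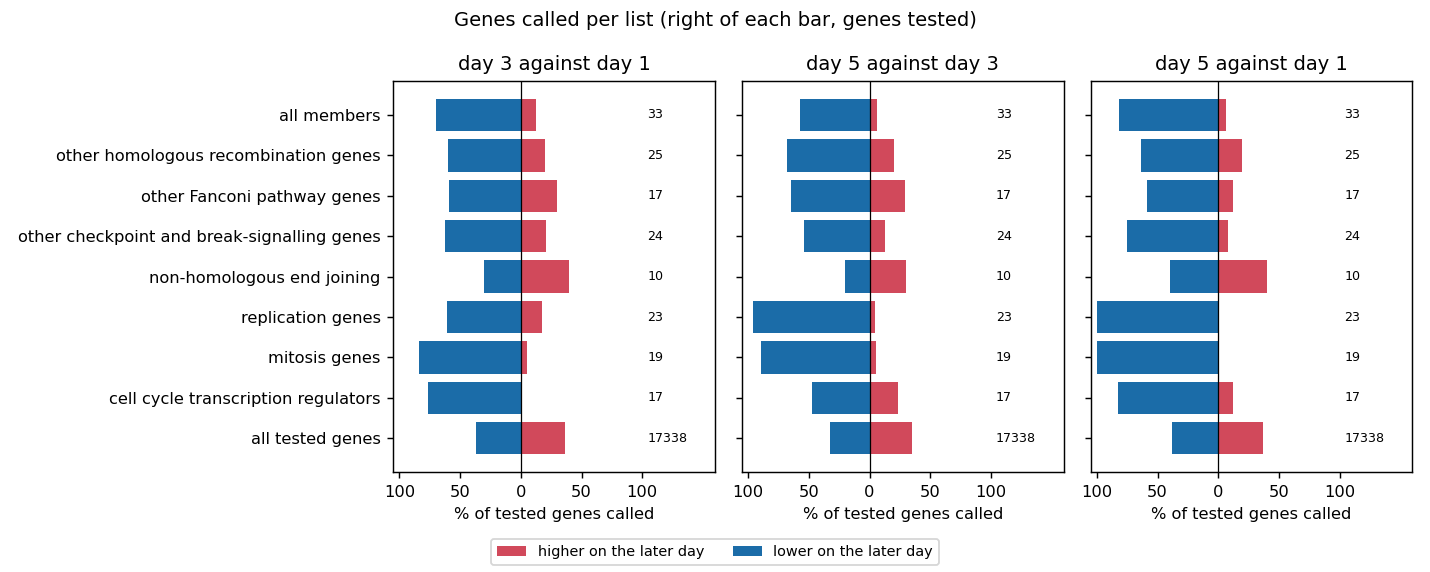
Share of tested genes called lower (blue, left) and higher (red, right) on the later day, for the members, 7 further lists and all tested genes, in 3 panels for the comparisons, with the number of genes tested beside each bar. The members, at 69.7%, 57.6% and 81.8% lower, lie between the end-joining list and the replication and mitosis lists on day 5 against day 1, where those 2 lists are lower in full.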

How the data were processed

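The authors deposited 1 table with a log2 value for each gene in each library. The submitters' processing notes name HISAT2 2.1.0, DESeq2 1.36.0 and the build GRCm39. Not given in the sources used here are the read counter, the annotation release and any use of strand. The deposited log2 values have no pseudocount, and 297330 cells without a value hold an error text and were read as 0. Of 57107 lines, 359 repeated a gene and were dropped. On the linear scale, 100% of values in each library were whole multiples of 1 read within 0.01 read, which gave depth. These linear values are the normalized counts of the text.

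The 17338 genes reaching 10 normalized counts in 3 or more libraries were tested as log2(normalized count + 1) with limma 3.58.1 in R 4.3.3, which understates changes of low genes: 1 mean per day over 9 libraries, eBayes with a trend, 6 residual degrees of freedom, two-sided, Benjamini-Hochberg at 0.05. Samples were grouped by day from their titles. The test was tried first on simulated data. Replicates of a day correlated at 0.968 to 0.989 across genes, which are not independent, and each pair differed beyond counting noise. Alternatives changed the pseudocount, filter, scaling, length and GC trend, variance trend, block and libraries. Lengths, GC content and overlaps came from GENCODE M21 on GRCm38, another build, by identifier, and no position is taken from it, while promoter positions are those of RefSeq; 98.3% of tested genes had a length.

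Members, gene lists and tests were chosen with earlier results of these data known. Named are all members, and from each further list the 2 highest and 2 lowest log2 changes among called genes per comparison, with Mki67, Pcna, Krt5 and Trp63 besides. From the further recombination genes 1 gene is not reported here.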

Additional observations from a re-analysis of the deposited data

How the results depend on the processing

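Over 21 other settings, 1946 of 2076 single-member results kept their direction and their side of the threshold. Of the rest, 46 were no longer called, 32 were newly called and 52 changed sign. Among these 52, 34 were called in neither fit and 4 were called in both fits, with opposite signs. The number of members called lower stayed between 22 and 25 on day 3 against day 1, 16 and 22 on day 5 against day 3, and 26 and 28 on day 5 against day 1. Upper-quartile scaling moved the median of all genes by 0.13, 0.11 and 0.25 in these comparisons, and the share of higher among all calls was 54.4%, 57.9% and 58.3% there, against 49.4%, 51.8% and 49.3% as reported.

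Counts of members called higher were small and moved more. With the length and GC trend removed, 7 members were higher on day 3 against day 1, 0 on day 5 against day 3 and 1 on day 5 against day 1, and the difference between the steps was positive in 7 and negative in 16. The replicate block with the length and GC trend removed gave 7, 0, 1, 6 and 14. Members higher on day 5 against day 3 numbered 1 with no filter, 0 with quantile normalization and 1 with the replicate block. Members higher on day 5 against day 1 numbered 5 with upper-quartile scaling and 1 with quantile normalization. Leaving out each library in turn, the higher members ranged from 4 to 5, 0 to 2 and 2 to 2 in the 3 comparisons, the lower ones from 23 to 24, 16 to 19 and 27 to 27, positive step differences from 8 to 12, negative ones from 5 to 10, and members passing the F test from 30 to 31. The count of 0 came without day 3 replicate 1, where Fancm alone was higher at an unadjusted p under 0.05, and negative step differences were 5 without day 3 replicate 1 or replicate 2. The cause of these shifts was not tested.

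Changes of sign came mostly from the length and GC fit, with or without the replicate block. On day 3 against day 1 it gave 0.43 for Brca2, 0.29 for Brip1, 0.35 for Rmi1, -0.67 for Fance and -0.13 for Mus81. On day 5 against day 3 it gave -0.26 for Dna2, -0.39 for Rmi1, -0.24 for Fancl, -0.056 for Fanci, -0.065 for Slx4, -0.14 for Atm and -0.56 for Atr. On day 5 against day 1 it gave -0.12 for Rad51d, -0.83 for Fance and -0.47 for Mus81. Quantile normalization gave -0.27 for Dna2, -0.029 for Rmi1, -0.18 for Fancl, -0.24 for Fanci and -0.11 for Atr on day 5 against day 3, and -0.021 for Fancl on day 5 against day 1. With 1 library left out, values on day 5 against day 3 ranged from -0.096 to 0.13 for Dna2, -0.075 to 0.080 for Rmi1, -0.056 to 0.23 for Fancl, -0.057 to 0.67 for Fanci, -0.24 to 0.92 for Atm and -0.22 to 0.12 for Atr, and on day 5 against day 1 from -0.024 to 0.12 for Rad51d and -0.058 to 0.20 for Fance.

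Replicate numbers showed no pairing of the samples: deviations of same-numbered libraries from their day means correlated at -0.31 to 0.14, and those of other numbers at -0.15 to 0.36. With 3 libraries a day, these correlations cannot settle whether the numbers pair the samples. With the replicate block, Rad51b, Fancf and Fancg were no longer called on day 5 against day 3, and no other call of a member in the 3 comparisons changed. The fewest reads of a member in a library were 18, so depth limits the lowest members, such as Rmi2 and Fanci, most.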
